A study of Mus musculus with 14 samples.

Results

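The expression of 10 endothelial and angiogenesis genes, Vegfa, Kdr, Flt1, Angpt1, Angpt2, Tek, Pecam1, Cdh5, Emcn and Vwf, was examined in the ovaries and uteruses of aged mice. The genes were listed by name, with earlier results of these data known, and were found through the GENCODE mouse M21 annotation among the 21853 genes of the deposited table, so all 10 were measured in all 14 libraries. The animals were female C57BL/6J mice of 28 weeks. All of them received 10 IU of PMSG and, 48 h later, 10 IU of hCG before the treatment, so the hormone priming was shared by the controls. The old control (OC) group (n = 3 mice) was injected with normal saline and the old treatment (OT) group (n = 4 mice) with AMSC-CM, the concentrated conditioned medium of human amniotic membrane-derived mesenchymal stem cells, mixed from 3 donors. Both groups received 6 tail vein injections 4 d apart at 1 µL per g of body weight. The ovary and the uterus of each of the 7 mice were sequenced after rRNA depletion. Expression was given as FPKM, which scales the fragments of a gene by its transcript length and by the size of the library, so levels of different genes can be set side by side on that scale.

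New vessels sprout when the secreted ligand VEGF-A binds its receptor VEGFR2 (encoded by Kdr) on endothelial cells, while VEGFR1 (Flt1), also made in a soluble form, binds the same ligand and limits what reaches VEGFR2. Angiopoietin-1 (Angpt1) from the cells around the vessel activates the receptor TIE2 (Tek) and keeps vessels stable, and angiopoietin-2 (Angpt2), released by endothelium, mostly opposes it. PECAM-1 (Pecam1), VE-cadherin (Cdh5), endomucin (Emcn) and von Willebrand factor (Vwf) are the products by which endothelium is usually recognised. Both organs renew their vessels in adult life, the ovary with every follicle and corpus luteum and the uterus with every cycle.

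The libraries differed in more than their vessels. Luteal and steroidogenic markers summed to 5636 to 7072 FPKM in the 7 ovaries and to 32.3 to 52.3 in the 7 uteruses, and uterine markers to 57.3 to 169 in the ovaries and 353 to 668 in the uteruses, so each organ carried the markers of its label. Smooth muscle markers summed to 652 to 1913 FPKM in the ovaries and 5297 to 10250 in the uteruses. Markers of fat cells summed to 173 to 244 FPKM in OC ovaries, 199 to 1407 in OT ovaries, 64.9 to 184 in OC uteruses and 740 to 8463 in OT uteruses, and 5 of 10 of them in the ovary and 10 of 10 in the uterus passed the fold change of 2 and p of 0.05 used by the study. Stratified epithelium markers summed to 2.39 to 11.5 FPKM in OC uteruses and 43.4 to 770 in OT uteruses (6 of 6 passed), against 0.903 to 2.10 in all ovaries. The uterus of OT replicate 1 stood apart from the others, with a summed level over all genes of 577494 FPKM against 425875 to 471907 in the other 6 uteruses and 374816 to 397644 in the ovaries, and with the 8463 FPKM of fat cell markers. Red cell markers reached 695 FPKM in the ovary of OT replicate 3 and 1233 in the uterus of OT replicate 1, against 137 to 284 in the 6 OC libraries. Platelet markers summed to 41.2 to 58.4 FPKM in ovaries and 38.7 to 95.8 in uteruses, with Gp9 at 0 in 10 of 14 libraries and at most 0.362 in the others. Of the other lists granulosa markers (278.9 to 775.7 FPKM in ovaries, 3.96 to 16.5 in uteruses) marked the ovary, while leukocyte markers spanned 37.9 to 77.3 FPKM in ovaries and 59.4 to 166 in uteruses. The part of these differences in the results below was not tested. Some values are also given without a library or with the fat cell markers as a covariate. Depth is unknown, because the files hold no counts.

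All 10 genes were expressed in both organs. Angpt1, Vegfa, Kdr, Flt1 and Emcn were lower in the uterus than in the ovary and Vwf was higher, whereas no gene of the 10 passed the test between OT and OC in either organ. In the ovaries the order of mean FPKM was Vegfa (57.4), Pecam1 (33.5), Cdh5 (28.5), Kdr (22.7), Emcn (18.5), Tek (12.7), Flt1 (12.3), Angpt1 (7.45), Vwf (5.88) and Angpt2 (3.78). The ranges over the 7 ovaries were separate between Vegfa and Pecam1, between Emcn and Tek and between Flt1 and Angpt1, and overlapped for the other neighbours in that order. In the uteruses the order was Pecam1 (31.1), Vegfa (23.1), Cdh5 (22.4), Vwf (15.2), Emcn (13.5), Kdr (12.7), Tek (10.9), Flt1 (7.12), Angpt1 (2.72) and Angpt2 (2.52), and every neighbouring pair overlapped. The median coefficient of variation of the 10 genes was 6.46% in OC ovaries, 15.7% in OT ovaries, 20.2% in OC uteruses and 24.3% in OT uteruses, so the uteruses were the more variable organ.

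**Figure D1:**
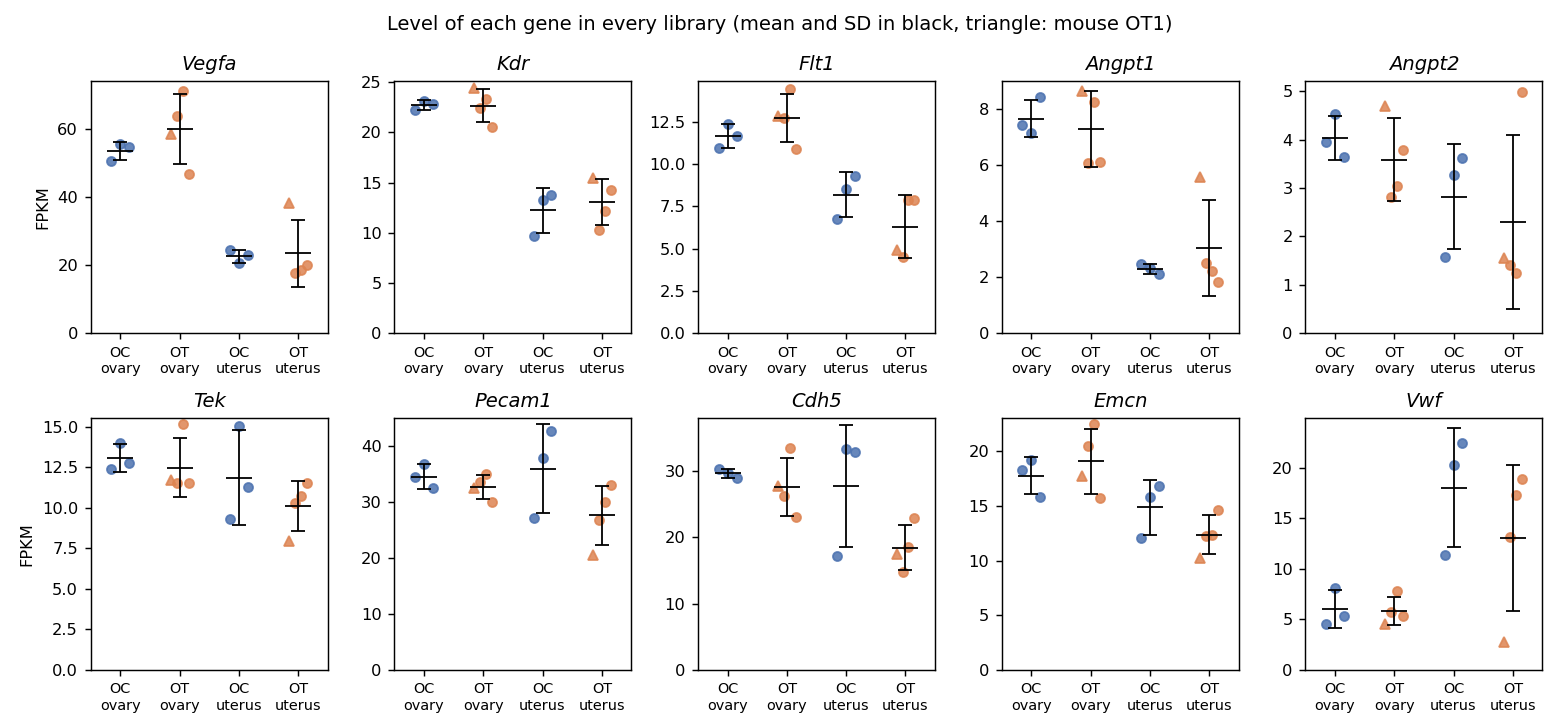
FPKM (vertical axes, from 0) of the 10 genes in each of the 14 libraries, in OC (blue) and OT (orange) ovaries and uteruses, with the mean and SD of each group in black and the libraries of OT replicate 1 as triangles. Vegfa, Kdr, Flt1 and Angpt1 are lower in all 7 uteruses than in all 7 ovaries, and the OT uterus with the highest Vegfa (38.3) and Angpt1 (5.57) has the lowest Vwf (2.78).

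Uterus and ovary were compared over the 14 libraries in a limma fit to the 14557 genes averaging 0.5 FPKM or more, on log2(FPKM + 0.1), with the OC and OT differences averaged. By Benjamini-Hochberg adjusted p, 6 of the 10 genes differed, 5 lower and 1 higher, and over all genes 52.9% differed, 26.8% lower and 26.1% higher. After scaling every library to the same total (TPM), the median of all genes itself moved by -0.24 on the log2 scale, the split over all genes went from 3798 higher and 3900 lower to 2328 higher and 6280 lower, and 8 of the 10 genes were lower and none higher. In a bulk organ, fewer cells of a type and less RNA per cell cannot be told apart.

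Among the VEGF ligand and its receptors, all 3 were lower in the uterus. Vegfa (chr17:46016993-46032369 of GRCm38), the VEGF-A gene, measured 50.7, 55.6 and 54.8 FPKM in OC ovaries and 58.5, 64.0, 71.3 and 46.7 in OT ovaries. In the uteruses it was at 24.3, 20.6 and 22.9 in OC and 38.3, 17.6, 18.5 and 19.9 in OT. The lowest ovary stood above the highest uterus, the OT ovaries spanned the OC ovaries on both sides, and in the uterus 3 OT libraries lay below every OC library while OT replicate 1 lay above all of them. Vegfa was 2.51-fold lower in the uterus (log2 difference -1.33, SE 0.16, limma adjusted p = 1.26e-05) and lower in 7 of 7 mice, by 0.61 in OT replicate 1 to 1.94 in OT replicate 3 on the log2 scale.

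Kdr (chr5:75932827-75978458), the main signalling receptor, varied little among the ovaries. Its level was 22.2, 23.2 and 22.9 FPKM in OC ovaries and 24.4, 22.5, 23.3 and 20.5 in OT ovaries. The uteruses held 9.69, 13.3 and 13.8 FPKM in OC and 15.4, 10.3, 12.2 and 14.3 in OT. The organs did not overlap and the treatment groups did in both organs. Uterine Kdr was 1.81-fold lower (log2 difference -0.86, SE 0.11, limma adjusted p = 1.55e-05), again in 7 of 7 mice.

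Flt1 (chr5:147561604-147726011), the VEGF-binding receptor with a soluble form, has 6 annotated transcripts of which 2 are protein coding, and the table gives 1 value for all of them. It was measured at 11.0, 12.4 and 11.7 FPKM in OC ovaries and 12.8, 12.7, 14.4 and 10.9 in OT ovaries. In uteruses the values were 6.77, 8.51 and 9.33 in OC and 4.94, 4.49, 7.89 and 7.90 in OT. Again no uterus reached the lowest ovary, and OT replicates 1 and 2 held the lowest uterine values. The difference was 1.72-fold (log2 -0.78, SE 0.14, limma adjusted p = 0.000439), in 7 of 7 mice, but in the OC libraries alone it was -0.51 with an adjusted p of 0.076.

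The angiopoietin system held the largest estimate of the 10 between the organs in its stabilising ligand. Angpt1 (chr15:42424723-42676977) was at 7.44, 7.14 and 8.43 FPKM in OC ovaries and at 8.65, 6.10, 8.27 and 6.13 in OT ovaries. Uterine levels were 2.47, 2.34 and 2.11 in OC and 5.57, 2.49, 2.22 and 1.84 in OT. The highest uterus, OT replicate 1, stayed below the lowest ovary, and the other 6 uteruses lay between 1.84 and 2.49. Angpt1 was 2.87-fold lower in the uterus (log2 difference -1.52, SE 0.21, limma adjusted p = 3.72e-05), in 7 of 7 mice. The 4 genes whose organs did not overlap, Vegfa, Kdr, Flt1 and Angpt1, were all lower in the uterus, where 13.5% of all genes lay below every ovary and 25.0% did not overlap in either direction.

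Angpt2 (chr8:18690263-18741562), the context-dependent opponent of Angpt1, had the lowest mean of the 10 over the 7 ovaries and over the 7 uteruses, although it stood above Angpt1 in 3 uteruses (OC replicates 2 and 3 and OT replicate 4). Ovarian values were 3.94, 4.53 and 3.63 FPKM in OC and 4.71, 2.82, 3.04 and 3.79 in OT. Uterine values were 1.58, 3.26 and 3.62 in OC and 1.55, 1.41, 1.24 and 4.99 in OT. The uteruses were scattered, with OT replicate 4 above every ovary and 4 of 7 uteruses below every ovary. The log2 difference of -0.71 (SE 0.29) missed the threshold (limma adjusted p = 0.0572), and with the mouse as a block it passed it (adjusted p = 0.0415). Angpt2 also passed at TPM scaling (-0.96, limma adjusted p = 0.0219, and -0.71 relative to the shifted median) and at 75th percentile scaling (-0.77, adjusted p = 0.0444). Without OT replicate 4 the difference was -0.91 with an adjusted p of 0.00457.

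Tek (chr4:94739289-94874976), the angiopoietin receptor, measured 12.4, 14.02 and 12.7 FPKM in OC ovaries and 11.7, 11.5, 15.2 and 11.5 in OT ovaries. It measured 9.28, 15.0 and 11.3 in OC uteruses and 7.94, 10.3, 10.8 and 11.5 in OT uteruses. The 2 organs overlapped, the uterus of OC replicate 2 lying above all but 1 ovary. The log2 difference of -0.23 had a 95% interval of -0.49 to 0.03 (limma adjusted p = 0.125). At TPM scaling Tek passed, at -0.47 (adjusted p = 0.0172), which was -0.23 relative to the shifted median.

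Of the genes that mark endothelium itself, Pecam1 did not pass the test between the organs under any scaling. Cdh5 did not pass in the main fit, but it did after rescaling and in the OT libraries alone. Pecam1 (chr11:106654217-106750628), an adhesion molecule at contacts between endothelial cells, was at 34.3, 36.7 and 32.4 FPKM in OC ovaries and 32.5, 33.5, 34.9 and 29.9 in OT ovaries. Uteruses held 27.1, 37.8 and 42.7 in OC and 20.5, 26.8, 30.0 and 33.0 in OT. The uterine range enclosed the ovarian range, and the log2 difference of -0.12 had an interval of -0.37 to 0.14 (limma adjusted p = 0.43).

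Cdh5 (chr8:104101625-104144511), the cadherin of the endothelial adherens junction, was at 30.4, 29.7 and 29.0 FPKM in OC ovaries and 27.7, 26.3, 33.5 and 23.1 in OT ovaries. In the uteruses it was at 17.1, 33.3 and 32.9 in OC and 17.5, 14.8, 18.6 and 22.9 in OT. The 4 OT uteruses and OC replicate 1 lay below every ovary, and OC replicates 2 and 3 lay among the highest ovaries. The log2 difference between the organs was -0.37 (SE 0.15, limma adjusted p = 0.0536), with -0.59 (adjusted p = 0.0313) in the OT libraries alone and -0.16 (adjusted p = 0.619) in the OC libraries alone. Cdh5 passed at TPM scaling (-0.61, limma adjusted p = 0.00761, and -0.37 relative to the shifted median) and at 75th percentile scaling (-0.44, adjusted p = 0.0286).

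Emcn (chr3:137341067-137432185), a sialomucin of capillary and venous endothelium, was at 18.3, 19.2 and 15.9 FPKM in OC ovaries and 17.7, 20.5, 22.5 and 15.7 in OT ovaries. Uterine Emcn was at 12.04, 15.8 and 16.8 in OC and 10.3, 12.2, 12.4 and 14.6 in OT. The ranges touched only through the 2 highest OC uteruses and the 2 lowest ovaries. Emcn was 1.36-fold lower in the uterus (log2 difference -0.44, SE 0.11, limma adjusted p = 0.00478), in 6 of 7 mice, and the OC libraries alone gave -0.26 (adjusted p = 0.243).

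Vwf (chr6:125546774-125686679), the clotting glycoprotein stored by endothelium and by platelets and their precursors, was the exception. Ovaries held 4.53, 8.10 and 5.27 FPKM in OC and 4.54, 5.67, 7.74 and 5.28 in OT. Uteruses held 11.4, 20.3 and 22.4 in OC and 2.78, 13.1, 17.3 and 18.9 in OT. Of the uteruses, 6 lay above every ovary and the uterus of OT replicate 1 lay below every ovary. Vwf was 2.32-fold higher in the uterus (log2 difference 1.22, SE 0.37, limma adjusted p = 0.0142), in 6 of 7 mice, and 1.48 higher on the log2 scale (adjusted p = 6.16e-05) without OT replicate 1. Without OC replicate 3 the adjusted p was 0.0724, in the OT libraries alone 0.172, and at TPM scaling 0.0541, where the difference of 0.98 was 1.23 relative to the shifted median. The 2 ovaries with the highest Vwf, OC replicate 2 and OT replicate 3, were also those with the highest level of the uterine gene Hoxa10 (53.4 and 48.9 FPKM), and the part of that in their Vwf was not tested.

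In the plot of log2 differences, the estimates of the ligands and VEGF receptors lay farther below 0 than those of the junction genes Pecam1 and Cdh5. Of these, only the receptors Kdr and Flt1 were tested against Cdh5, as ratios within the libraries. The ligands were not tested against Cdh5 or Pecam1.

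**Figure D2:**
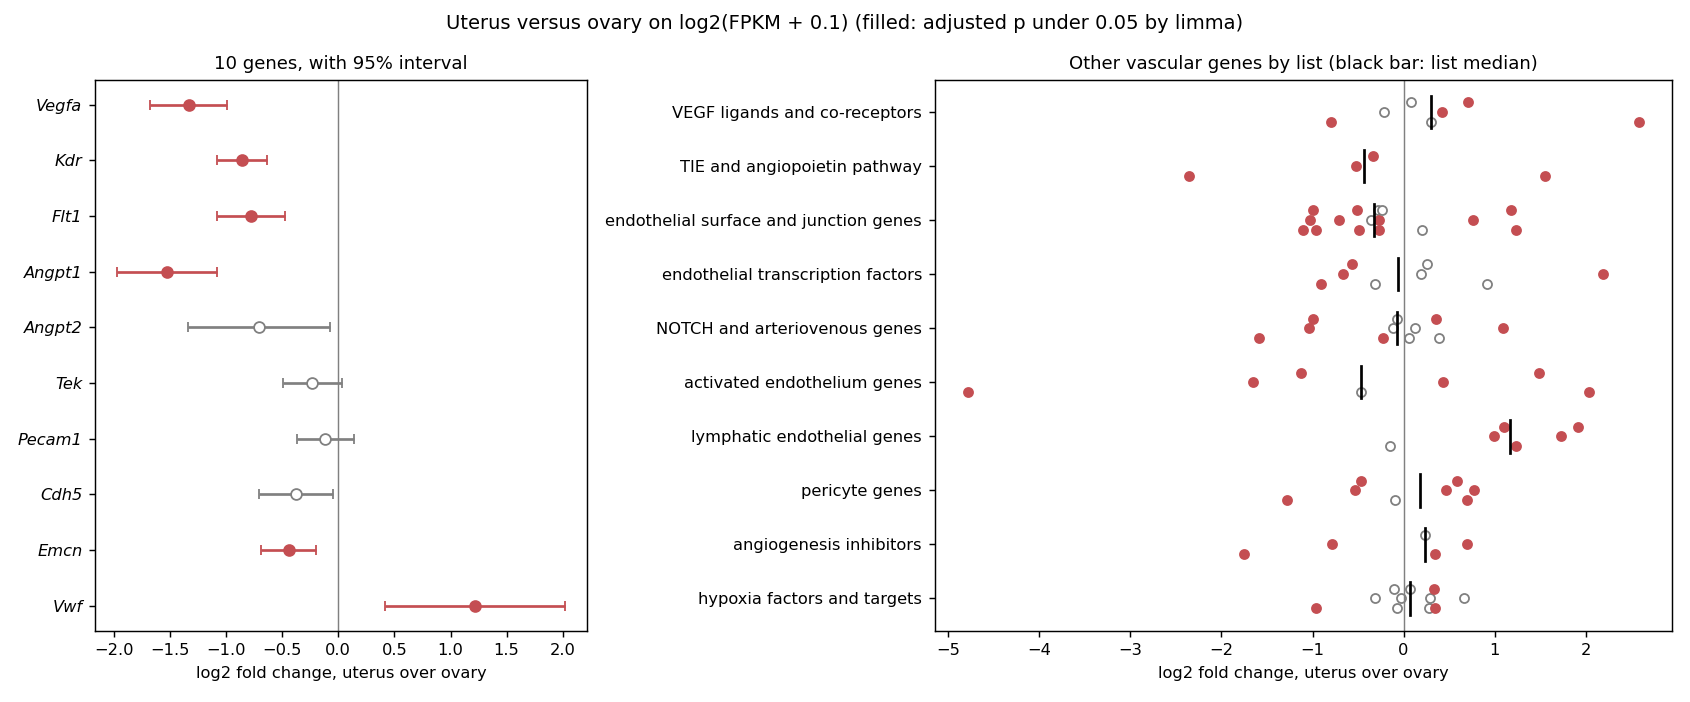
Log2 fold change of uterus over ovary on log2(FPKM + 0.1), over 14 libraries, for the 10 genes with 95% intervals (left) and for the 83 tested genes of 10 related lists (right, with a black bar at each list's median). Filled points had a limma adjusted p below the threshold of 0.05. Angpt1 (-1.52) and Vegfa (-1.33) lie farthest to the left of the 10 and Vwf (1.22) farthest to the right.

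Promoter sequences were looked up in RefSeq (GRCm38.p6) for the genes that were lower in the uterus, to show what lies before the start of genes that differed in the same direction. Entries were found for 5 of the 10 genes, and the 250 bases before the start of Vegfa, Kdr, Flt1 and Emcn are given here 5′ to 3′ on the strand of the gene. Capitals mark a match to CAGGAAG, a sequence bound by ETS factors (on the other strand it reads CTTCCTG). Both strands were searched.
Vegfa (chr17:46032378-46032627, minus strand): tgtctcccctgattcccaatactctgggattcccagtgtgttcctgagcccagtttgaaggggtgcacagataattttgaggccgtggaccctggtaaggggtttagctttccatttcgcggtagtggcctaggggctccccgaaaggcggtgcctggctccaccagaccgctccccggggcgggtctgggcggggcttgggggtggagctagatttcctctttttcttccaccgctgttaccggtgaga
Kdr (chr5:75978456-75978705, minus strand): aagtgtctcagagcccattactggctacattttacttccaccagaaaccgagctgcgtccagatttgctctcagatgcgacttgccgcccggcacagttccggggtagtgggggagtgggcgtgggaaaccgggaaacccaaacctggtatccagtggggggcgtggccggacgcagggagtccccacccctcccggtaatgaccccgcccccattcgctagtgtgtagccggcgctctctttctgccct
Flt1 (chr5:147726012-147726261, minus strand): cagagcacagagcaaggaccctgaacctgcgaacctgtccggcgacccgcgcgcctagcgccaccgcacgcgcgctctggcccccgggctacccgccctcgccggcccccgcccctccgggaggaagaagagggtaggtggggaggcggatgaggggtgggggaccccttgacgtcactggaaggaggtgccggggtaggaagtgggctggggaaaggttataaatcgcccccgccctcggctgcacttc
Emcn (chr3:137340828-137341077, plus strand): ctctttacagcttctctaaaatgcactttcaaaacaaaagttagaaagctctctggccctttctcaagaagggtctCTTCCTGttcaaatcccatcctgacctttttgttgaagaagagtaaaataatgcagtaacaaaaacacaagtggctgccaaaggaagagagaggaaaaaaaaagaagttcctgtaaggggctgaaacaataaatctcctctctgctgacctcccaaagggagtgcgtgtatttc
The match in Emcn was the only 1 among these windows and that of Tek, and 10.8% of 32851 RefSeq promoter windows held the sequence. The core of the hypoxia response element, ACGTG, was in none of these 5 windows and in 16.6% of all windows. Vegfa has another RefSeq window inside the gene, chr17:46025164-46025413, which held ACGTG 1 time. Unlike for the other windows, the bases checked after its start were in no GENCODE transcript of the gene. Sequence farther than 250 bases before a start was not searched. These are matches of letters, and which factors bind there was not measured.

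The study asked which genes AMSC-CM changed in each organ, at a fold change of 2 and an unadjusted p of 0.05. By that rule, in a limma fit of each organ, 0 of the 10 genes differed between OT and OC in the ovary, where 0.451% of all genes did, and 0 of 10 in the uterus, where 2.90% did. After Benjamini-Hochberg adjustment limma called 0 of 14415 ovarian and 0 of 14151 uterine genes, with 650 and 1160 genes at an unadjusted p below 0.05. With all 14 libraries in 1 fit, 47 uterine genes passed by adjusted p, and without OT replicate 1 in the fit of the uterus 2 did, none of them among the 10. The OT and OC ranges overlapped for 10 of 10 genes in both organs, while the groups did not overlap for 5.91% of all genes (ovary) and 11.9% (uterus). The p-values of each organ's fit set a difference against the spread between these mice, drawn by limma towards a trend over all genes. The fit of 14 libraries treated the ovary and the uterus of a mouse as independent.

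In the ovary the estimates were small and their intervals narrow. The log2 fold changes of OT over OC lay between -0.19 for Angpt2 (SE 0.20, 95% interval -0.63 to 0.26) and 0.15 for Vegfa (SE 0.13, interval -0.15 to 0.44), with limma adjusted p of at least 0.997 for all 10. Kdr was at -0.01 (interval -0.18 to 0.16) and Pecam1 at -0.08 (interval -0.25 to 0.10). No interval of the 10 reached a log2 change of 1 in either direction. The ovary of OT replicate 4 lay below the OC mean for 10 of 10 genes (median log2 deviation -0.18) and that of OT replicate 3 for 1 of 10 (median 0.20). The ovary of OT replicate 3 held the highest Vegfa, Flt1, Tek, Cdh5 and Emcn of all ovaries.

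In the uterus 8 of 10 estimates were below 0, with a median of -0.32 over the 10 against 0.01 over all genes, and none passed the test. By p the gene nearest the threshold was Cdh5, while Vwf, given below, had the estimate nearest the 2-fold limit. Cdh5 had means of 27.8 ± 9.22 FPKM (SD, n = 3) in OC and 18.5 ± 3.38 (SD, n = 4) in OT. Its log2 fold change was -0.54 (SE 0.26, limma adjusted p = 0.613). Without OC replicate 1, whose Cdh5 was at the OT level, the estimate was -0.86 (limma adjusted p = 0.697), and without OC replicate 2 it was -0.38. Pecam1 went from 35.9 ± 7.96 (SD, n = 3) to 27.6 ± 5.35 FPKM (SD, n = 4), an estimate of -0.38 (SE 0.21, adjusted p = 0.625), and Flt1 was at -0.41 (SE 0.25, adjusted p = 0.627). Emcn was at -0.26 (SE 0.18), Tek at -0.21 (SE 0.21) and Kdr at 0.09 (SE 0.20). At TPM scaling the median of all genes in this comparison moved to -0.13 and Kdr turned to -0.05.

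Single uteruses set several of the estimates. Vwf was at -0.72 (SE 0.64) with OT replicate 1 and at -0.09 without it. Angpt1 was at 0.25 (SE 0.37) with that library and at -0.08 without it, and Vegfa was at -0.02 (SE 0.27) and -0.27, all below the threshold of a 2-fold change. Angpt2 was at -0.44 (SE 0.51), and at -0.88 (unadjusted p = 0.045, limma adjusted p = 0.384) without OT replicate 4. With the mean level of the fat cell markers as a covariate the uterine estimates of Vwf (1.35), Angpt1 (-1.04) and Kdr (-0.50) changed sign. Their unadjusted limma p were 0.237, 0.113 and 0.174. That mean log2 level was 1.72 to 3.21 in OC uteruses and 5.1 to 8.08 in OT uteruses, without overlap. In the uterus this fit therefore cannot tell fat content and treatment apart.

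**Figure D3:**
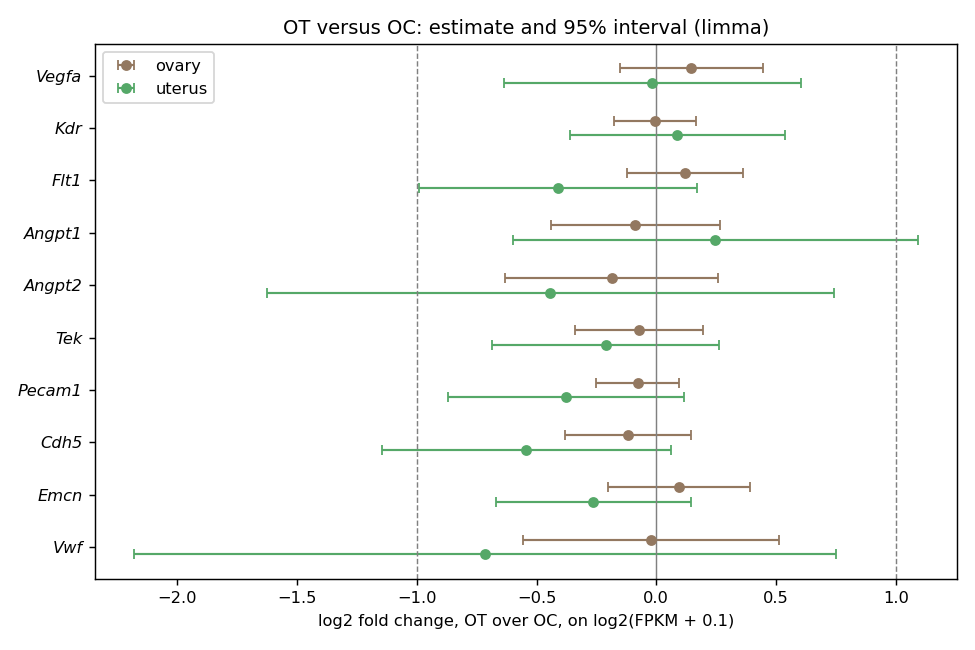
Log2 fold change of OT over OC on log2(FPKM + 0.1) with its 95% interval from limma, for the 10 genes in the ovary (brown, 3 OC and 4 OT libraries) and the uterus (green, 3 and 4). Dashed lines mark the 2-fold limit. Every interval includes 0, and those of the uterus are wider, from -2.18 to 0.75 for Vwf.

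The deviations of each library from the OC mean of its organ show how the uteruses differed. OT replicate 1 combined Angpt1 at 1.2 and Vegfa at 0.8 above the OC mean (log2) with Vwf at 2.6 and Pecam1 at 0.8 below it. OT replicates 2 and 3 lay below the OC mean for 9 of 10 genes each (medians -0.38 and -0.17). OC replicate 1, a control, lay below it for 8 of 10 genes (median -0.32). Over the 7 uteruses, as a description, Pecam1 and Emcn moved together (Pearson's r = 0.982) and Angpt1 and Vwf in opposite directions (r = -0.964). Over the 7 ovaries Flt1 and Vegfa moved together (r = 0.955). The libraries share their scaling, and OT replicate 1 is an extreme point for Angpt1 and Vwf.

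**Figure D4:**
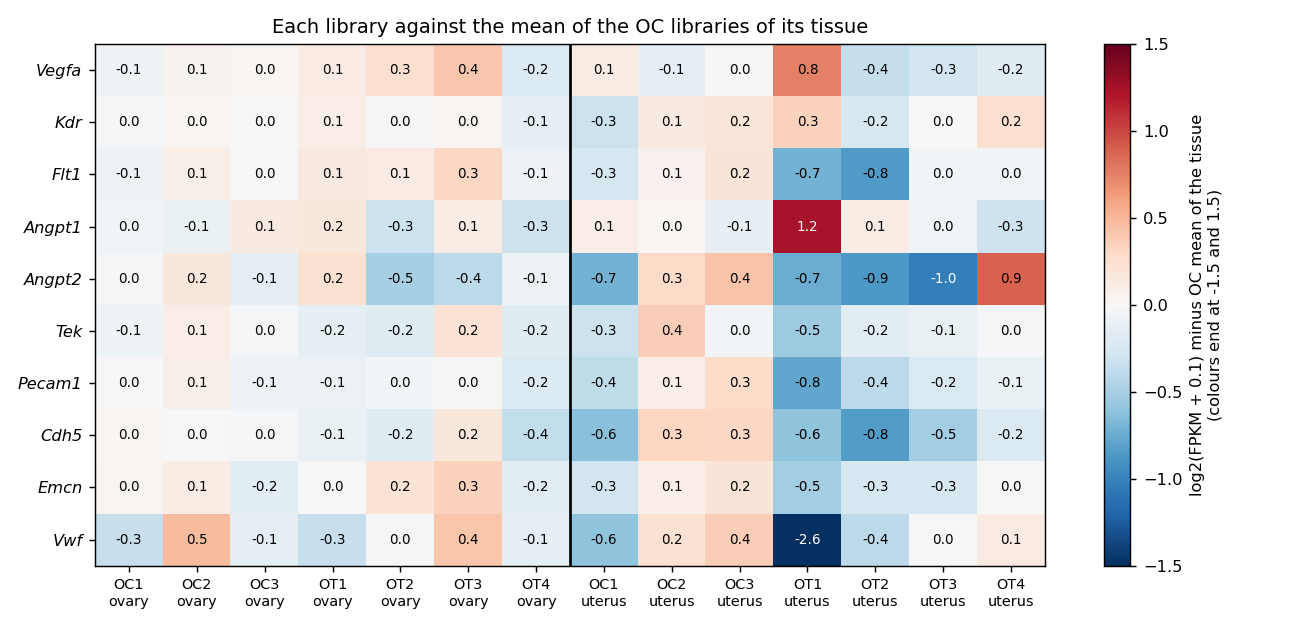
Log2(FPKM + 0.1) of the 10 genes (rows) in each library (columns, ovaries left and uteruses right of the line) minus the mean of the 3 OC libraries of the organ, as colour and number. The uterus of OT replicate 1 has the lowest Vwf (-2.6) and the highest Angpt1 (1.2), and the OC uterus of replicate 1 is also low for most genes.

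The difference of the treatment effect between the organs was tested as an interaction over the 14 libraries. None of the 10 genes passed (0% of all genes did by limma adjusted p, and 746 of 14557 had an unadjusted p below 0.05). Flt1 was the nearest of the 10, with an estimate lower in the uterus than in the ovary (log2 -0.53, SE 0.28, limma adjusted p = 0.844). For Kdr it was 0.10 (SE 0.21), and for Vwf -0.69 (SE 0.74).

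To see whether one gene of a pair changed relative to the other within a library, 9 ratios were formed and tested 27 times, and none passed after adjustment (lowest adjusted p = 0.241). Between OT and OC the smallest exact permutation p that 35 splits allow is 0.0571, so those tests could not pass. Between the organs the smallest is 0.0156, and after adjustment over 27 tests a single ratio at that p could not pass either. That none passed is therefore no sign that the ratios were equal. Per Cdh5, Kdr was at 0.697 to 0.891 in the ovaries and at 0.401 to 0.881 in the uteruses, lower in the uterus in 6 of 7 mice (log2 difference -0.45, exact permutation p = 0.0313 over 128 sign changes). Flt1 per Cdh5 was also lower in the uterus in 6 of 7 mice (-0.41, exact p = 0.0469). Vwf per Cdh5 was at 0.152 to 0.275 in the ovaries and at 0.609 to 0.931 in 6 uteruses, with 0.163 in OT replicate 1 (log2 difference 1.57, exact p = 0.0313). The ligand relative to its receptor, Vegfa per Kdr, was at 2.27 to 3.05 in the ovaries and 1.39 to 2.495 in the uteruses (log2 difference -0.49, exact p = 0.0625).

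The receptor pair Flt1 per Kdr was close in the organs (log2 difference 0.03, exact p = 0.828) but more spread in the uterus, at 0.643 to 0.702 in OC and 0.325 to 0.652 in OT. The antagonist to agonist ratio Angpt2 per Angpt1 was at 0.375 to 0.639 in the ovaries and 0.291 to 2.62 in the uteruses, higher in 6 of 7 mice (log2 difference 0.77, exact p = 0.109). Between the treatment groups, Kdr per Cdh5 in the uterus was at 0.568, 0.401 and 0.420 in OC and at 0.881, 0.696, 0.656 and 0.625 in OT. These groups did not overlap, and the difference of 0.63 on the log2 scale had an exact two-sided permutation p of 0.0571, the smallest that 35 splits allow (adjusted p = 0.241). In the ovary Flt1 per Cdh5 was at 0.363 to 0.419 in OC and 0.432 to 0.487 in OT, also without overlap (log2 difference 0.24, exact p = 0.0571, adjusted p = 0.241).

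**Figure D5:**
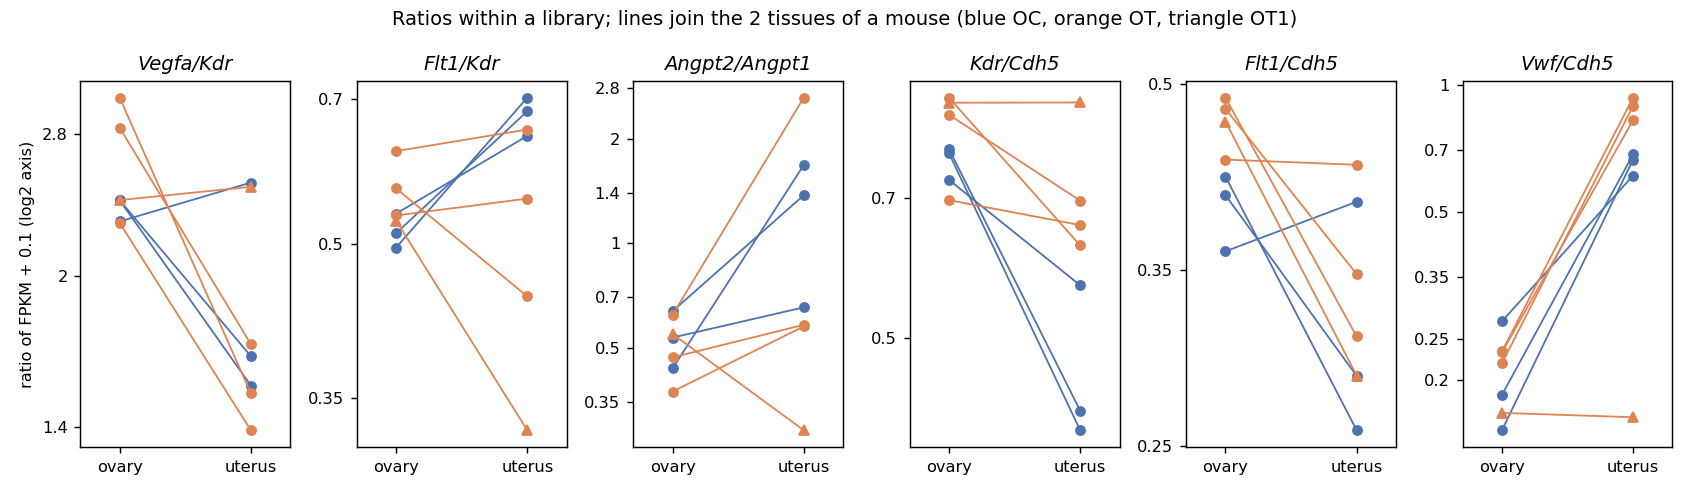
Ratios of FPKM + 0.1 within each library (vertical log2 axes) for 6 of the 9 pairs, with a line joining the ovary and the uterus of each of the 7 mice, OC in blue, OT in orange and OT replicate 1 as triangles. Kdr per Cdh5 falls along 6 of 7 lines and Vwf per Cdh5 rises along 6 of 7, the exceptions being OT replicate 1.

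The wider vascular programme was read from 84 genes in 10 lists. Between the organs 26 were higher and 29 lower in the uterus of 83 tested, 66.3% against 52.9% of all genes. At TPM scaling 18 were higher and 35 lower, while over all 14557 genes 2328 were higher and 6280 lower. The VEGF list (3 higher, 1 lower of 7, median log2 difference 0.30) was led by Vegfd, a ligand of the lymphatic receptor VEGFR3, which was at 3.02 to 14.1 FPKM in ovaries and 37.2 to 61.4 in uteruses (log2 difference 2.59, SE 0.24), while the co-receptor Nrp1 was lower (-0.80, SE 0.12). Of the lymphatic genes, 5 of 6 were higher in the uterus (median 1.17), with Lyve1, a hyaluronan receptor, at 1.92 (SE 0.20) and the chemokine Ccl21a at 1.73 (SE 0.20). In the TIE list (1 higher, 3 lower of 4, median -0.43) Angpt4 was lower (-2.36, SE 0.19), in the direction of Angpt1, and the adaptor Dok2 was higher (1.55, SE 0.18).

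Among 16 further surface and junction genes 9 were lower and 3 higher (median -0.32), led by Cd34 (1.24, SE 0.14) and Ecscr (1.18, SE 0.15), both higher. Activated endothelium genes (3 higher, 3 lower of 7, median -0.46) held the largest difference of all lists in Apln, the apelin gene of sprouting tip cells, at 14.3 to 29.1 FPKM in ovaries and 0.367 to 1.33 in uteruses (-4.78, SE 0.24). In the same list Ackr1, a chemokine-binding protein of venules, was higher (2.04, SE 0.30). NOTCH and arteriovenous genes (2 higher, 4 lower of 11, median -0.07) were led by the arterial factor Hey2 (-1.59, SE 0.19) and the venous factor Nr2f2 (1.09, SE 0.13). The list of endothelial transcription factors (1 higher, 3 lower of 8, median -0.06) was led by Gata2 (2.19, SE 0.35) and Erg (-0.91, SE 0.15). The lists are named after roles in vessels, and which cells of each organ expressed these genes was not measured. The uterus of OC replicate 1 held the highest uterine Gata2 (113.5 FPKM) and the lowest Cdh5 of the OC uteruses (17.1).

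Pericyte genes (4 higher, 3 lower of 8, median 0.18, and -0.05 at TPM scaling) were led by Pdgfb (-1.28, SE 0.13), the endothelial ligand that recruits pericytes, and by the channel subunit Kcnj8 (0.78, SE 0.12). Among 5 angiogenesis inhibitors (2 higher, 2 lower, median 0.24, and -0.001 at TPM scaling) thrombospondin-1, Thbs1, was lower (-1.76, SE 0.12), as was Vash1 (-0.78, SE 0.13). In the list of hypoxia factors and targets 2 were higher and 1 lower of 11 (median 0.07), which turned to 0 higher and 3 lower at TPM scaling (median -0.17). Car9 was at -0.97 (SE 0.19), and Arnt, at 0.34 (SE 0.07), did not pass at TPM scaling (0.11, limma adjusted p = 0.342). All named genes of the lists had limma adjusted p of at most 0.000921 before rescaling, and 6 of 6 smooth muscle markers were higher in the uterus (median 2.43).

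Between OT and OC, 0 of 83 list genes passed the study's rule in the ovary, and the most abundant gene of each list stayed within its spread there. These were Nrp1 (log2 fold change 0.01), Tie1 (0.05), Cd34 (-0.08), Ets1 (0.01), Nr2f2 (0.04), Aplnr (0.06), Ccl21a (0.10), Rgs5 (-0.06), Thbs1 (-0.27) and Hif1a (-0.11), with limma adjusted p of at least 0.997. In the uterus 3 of 82 passed (3.66%, against 2.90% of all genes and 2.23% in the higher direction), all higher in OT and none by adjusted p. Gpihbp1, which anchors lipoprotein lipase to capillaries, was at 3.51, 2.45 and 2.67 FPKM in OC and at 23.1, 4.38, 8.56 and 4.67 in OT. Its 4 OT uteruses lay above all 3 OC uteruses, with OT replicate 1, the uterus highest in fat cell markers, highest (log2 fold change 1.46, SE 0.54, limma adjusted p = 0.559). Among hypoxia targets the carbonic anhydrase Car9 was at 0.783, 0.873 and 0.527 in OC and 1.78, 1.57, 1.69 and 1.28 in OT (1.04, SE 0.30, limma adjusted p = 0.522). The oxygen sensor Egln3 was at 1.75, 1.22 and 1.83 in OC and 5.48, 2.83, 3.14 and 2.87 in OT (1.08, SE 0.30, limma adjusted p = 0.495). Without OT replicate 1 none of the 3 reached the 2-fold limit (0.95 for Gpihbp1, 0.98 for Car9 and 0.86 for Egln3 on the log2 scale). Without OC replicate 3 Car9 was at 0.85, and without OC replicate 2 Egln3 was at 0.91. Gpihbp1 kept a 2-fold estimate without OC replicate 2, OC replicate 3 or OT replicate 3 (1.36, 1.42 and 1.43) but missed the p of 0.05. The groups overlapped for none of the 3, and Car9 and Egln3 no longer passed at TPM scaling. Of the 11 genes in the hypoxia list 8 estimates were above 0 and 3 below (median 0.09, and -0.05 at TPM scaling). Bnip3 (25.4 to 32.1 FPKM in OC, 39.5 to 113.6 in OT) and Pdk1 (6.10 to 7.29, 8.78 to 17.5) did not overlap either but did not pass. The same held for genes of other lists. Vegfb, Vegfd, Vcam1 and Reln were higher in every OT uterus than in every OC uterus, and Nr2f2, Hey2 and Selp were lower. Over all genes 11.9% did not overlap. Vegfa, a hypoxia target outside that list, was at -0.02. A part of hypoxia in these values was not tested.

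In the other lists of the uterus the most abundant genes did not pass. Vegfd was at 0.36 (SE 0.14), Ptprb at -0.25 (SE 0.21), Sox17 at -1.42 (SE 0.93), Nr2f2 at -0.53 (SE 0.20), Aplnr at -0.70 (SE 0.41), Ccl21a at 0.31 (SE 0.35), Rgs5 at -0.61 (SE 0.24) and Serpinf1 at -0.03 (SE 0.15), all log2 fold changes with limma adjusted p of at least 0.563. Without OT replicate 1 Sox17 was at -0.56, Aplnr at -0.37 and Ccl21a at 0.01, and without OC replicate 1 Sox17 was at -0.78. List medians lay between -0.33 for NOTCH and arteriovenous genes and 0.28 for lymphatic genes.

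Taking Cdh5 as the endothelial reference, the genes whose levels followed it most closely were sought over the 14 libraries, after centring each of the 4 groups. Of 14556 genes the highest Pearson's r belonged to Kif23 (0.950), Adi1 (0.926), Slco4a1 (0.925), Ell2 (0.923) and Paox (0.923). The other genes of the 10 followed at rank 124 for Kdr (0.786), 147 for Emcn (0.775), 187 for Pecam1 (0.756), 214 for Flt1 (0.741), 315 for Tek (0.700), 495 for Angpt2 (0.647) and 1811 for Vwf (0.421). Vegfa (0.05) and Angpt1 (-0.13) did not follow Cdh5. The coefficient of variation of Cdh5 was 33.2% in OC uteruses, 18.3% in OT uteruses, 2.31% in OC ovaries and 15.8% in OT ovaries. The 3 OC uteruses therefore weigh most in these values of r. The ranking is a description over libraries that share animals and scaling.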

How the data were processed

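Libraries were made from rRNA-depleted total RNA with a stranded kit and sequenced on an Illumina instrument. For the deposited table of 14 libraries the authors used Skewer 0.2.2 for trimming, STAR 2.5 for alignment to mm10 and Cufflinks 2.2.1, with its strand-specific option, for FPKM per gene. FPKM hold no counts, so depth and counting error are unknown. Symbols of all 21853 identifiers were taken from GENCODE M21 (GRCm38). The 10 genes, the 10 gene lists (84 genes) and the 9 cell type marker lists were chosen with earlier results of these data known.

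Values were fitted as log2(FPKM + 0.1) with limma 3.58.1 (R 4.3.3, eBayes with trend) for genes averaging 0.5 FPKM or more, and adjusted over all of them by Benjamini-Hochberg. OT and OC were compared within each organ, without a block, at a fold change of 2 and p of 0.05, since the study's Cuffdiff test needs reads. The organs and the interaction were fitted over 14 libraries at an adjusted p of 0.05. Log2 ratios were tested by exact permutation (two-sided) with Python 3.11.15 and scipy 1.17.1. The limma script was tested on simulated data. The labels give the ovary and the uterus of a mouse the same code, and their deviations correlated at r = 0.074 to 0.254, below the highest r with another mouse for 4 of the 7. The mouse was used as a block in an alternative fit because the samples come from the same animals. Other pseudocounts, filters and scalings, a replicate block, the fat cell markers as a covariate and leaving out each replicate were also run. Named genes were all 10, and from each list the 2 with the largest organ difference that passed, those passing between OT and OC (up to 3), or the most abundant gene where none passed. Outside that rule, Bnip3, Pdk1 and genes of other lists were named because their OT and OC uteruses did not overlap.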

Additional observations from a re-analysis of the deposited data

Results flagged for a closer look

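Each of the 10 genes was checked in the 4 OT ovaries and in the 4 OT uteruses for a library far from the others by Dixon's test, 20 groups in all, of which 3 were found; chance alone marks about 1 in 20. Tek in the ovary of OT replicate 3 was at 15.2 FPKM, while the other 3 OT ovaries lay at 11.5 to 11.7. Vegfa in the uterus of OT replicate 1 was at 38.3 FPKM, against 17.6 to 19.9 in the other OT uteruses. Angpt2 in the uterus of OT replicate 4 was at 4.99 FPKM, against 1.24 to 1.55.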

How the results depend on the processing

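In no alternative run did any of the 10 genes pass between OT and OC in either organ or in the interaction, and the number passing between the organs stayed at 5 to 8 without each mouse in turn. Over all genes, the count passing in the ovary (65) was 18 with a pseudocount of 1 FPKM, 159 with no filter, 25 at a mean of at least 2 FPKM, 105 with the replicate block and 51 to 137 without each replicate in turn, highest without OT replicate 3. In the uterus (410) it was 259 with a pseudocount of 1, 666 with the replicate block, 638 with the fat cell covariate and 295 to 605 without each replicate. In the interaction it was 0 to 8, with 8 without OT replicate 2. The cause was not tested. The replicate numbers that OC and OT share belong to different mice (r of deviations -0.011 to 0.335), so the block there pairs numbers only. With the mouse as a block between the organs, Angpt2 passed and the other 9 genes kept their call.

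Among single results 702 kept side and direction, 9 passed newly, 5 no longer passed and 31 changed sign. None of the sign changes passed its test, but uterine Vwf (1.35) and Angpt1 (-1.04) with the covariate exceeded a 2-fold change. In the ovary Kdr was 0.00676 at TPM, 0.00452 at 75th percentile scaling, 0.0395 with the block and -0.0428 to 0.0395 without each replicate. Tek was 0.12 with the covariate, and Vwf 0.0144 with the block, 0.33 with the covariate and -0.19 to 0.22 without each replicate. In the uterus Kdr was -0.0515 at TPM, -0.50 with the covariate and -0.0709 to 0.20 without each replicate, Vegfa 0.0387 with the block and -0.27 to 0.0986, Angpt1 -1.04 with the covariate and -0.0831 to 0.43, and Vwf 1.35 with the covariate. Between the organs Pecam1 was 0.0336 in the OC libraries alone, and Flt1 per Kdr was -0.0443 to 0.16. In the interaction Kdr was -0.0583 at TPM and -0.0471 to 0.20, Vegfa -0.43 to 0.0143 and Angpt2 -0.66 to 0.0309 without each mouse. With 3 OC and 4 OT mice and no counts, the intervals given show the range of changes that remain compatible with these data. The smallest detectable change was not calculated.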
